A study of Homo sapiens with 6 samples.

Results

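The 9 genes described here encode the 6 receptor chains of the interferons (IFNAR1, IFNAR2, IFNGR1, IFNGR2, IFNLR1 and IL10RB) and the 3 Janus kinases bound to them (JAK1, JAK2 and TYK2), out of 24135 genes compared. They were chosen by name, and a ChIP-seq region was assigned to a gene when it overlapped a window of 1 kb up- or downstream of an annotated transcription start site (TSS) of the gene. The 9 genes have 111 of the 168898 TSSs, and where the windows of neighbouring TSSs of a gene overlapped they were joined, which gave 29 of 62419 promoters. H3K27ac and H3K4me3 were mapped in HSC3, an established oral squamous cell carcinoma (OSCC) cell line, collected 72 h after transfection with a control siRNA (siCONT) or with an siRNA against the lncRNA DLEU1 (siDLEU1, the siDLEU1-2 oligonucleotide in the study's methods). The antibodies came from Active Motif for H3K27ac and were clone MC315 for H3K4me3, and no cells without siRNA were in the set. There was 1 library for each siRNA and mark, so the values below carry no replicate error and no p-value, and an effect of the siRNA and a difference between cultures or libraries cannot be told apart. The comparison asks how both marks stood at the start sites of the interferon receptor pathway after siDLEU1.

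Type I interferons bind IFNAR1 and IFNAR2, interferon gamma binds IFNGR1 and IFNGR2, and interferon lambda binds IFNLR1 paired with IL10RB, a chain also used by the interleukin-10 receptor. JAK1 sits on IFNAR2, IFNGR1 and IFNLR1, TYK2 on IFNAR1 and IL10RB, and JAK2 on IFNGR2, and the kinases phosphorylate STAT proteins, which bind ISRE or GAS elements of target genes. H3K27ac marks active promoters and enhancers, and H3K4me3 marks promoters, both mostly on the nucleosomes beside a TSS rather than on it.

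The peak lists held 19705 (siCONT) and 17672 (siDLEU1) regions of H3K27ac on the autosomes and chromosome X, and 58582 and 56943 regions of H3K4me3. The lists state no read numbers, but the fragments at each summit can be solved from the fold enrichment and p of a region. Under an assumed genome of 2.7 Gb the H3K27ac libraries came to 21.5 (siCONT) and 29.4 M reads (siDLEU1), and the H3K4me3 libraries to 28.4 and 22.3 M reads. Raw fragment counts are therefore not comparable between siCONT and siDLEU1 without this scaling. The summit level below is the number of fragments over the summit per M of these reads, with intervals that cover counting error only. Fold enrichment over local background is not comparable between lists, so it is given as its percentile within the list (100 at the top, 0 without a region), which is an order and not a level. The local background is the control coverage that MACS2 expects at the summit, in control fragments, recovered here on the assumption of its default rule, since its settings and control library are not given. Under that assumption it was 0.497 or 0.439 in the H3K27ac lists of siCONT and siDLEU1 where only the genome average counted, and 1 or 2 are the values that as many control fragments over the summit would give. Regions lay at a TSS of 7 of 7 squamous epithelial markers in siCONT cells for both marks, and at none of PTPRC, CD3E and ALB in any list. The peak lists analysed here hold no RNA levels, so the depletion of DLEU1 itself was not checked in them.

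All 9 genes carried both marks in siCONT cells, whereas 56.3% of all genes carried H3K27ac and 56.6% carried H3K4me3. They carried them at 10 of their 29 promoters, 1 for each gene and 2 for JAK1, against 23.6% and 26.6% of all promoters, and the same 10 promoters were marked in all 4 lists. After siDLEU1 none of the 9 genes had lost a mark. Of all genes with a region of the mark in siCONT, 5.61% had lost H3K27ac and 3.24% had lost H3K4me3. With peaks at a −log10 q of at least 10 alone, however, IFNLR1 had no H3K27ac region after siDLEU1. The 10 promoters held 13 H3K27ac regions in siCONT and 17 in siDLEU1 cells, and 17 H3K4me3 regions in each. All promoters with a region in both lists held 19144 and 19999 H3K27ac regions, and 25866 and 24363 H3K4me3 regions. These were counted promoter by promoter, so that 1 region can count more than once.

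The DNA just upstream of the start sites is shown for IFNAR1 and IFNGR2, the receptor genes that the study also followed by qRT-PCR, for IFNLR1, whose H3K27ac level had the lowest ratio between the lists, and for both marked JAK1 promoters, whose percentiles moved apart. Each stretch lies within the 250 bases before the TSS in GRCh37 (hg19), without the bases that any annotated exon of the gene covers. Capitals mark the matches to 4 motifs searched on both strands: the ISRE core (GAAANNGAAA), GAS (TTCNNNGAA), the GC box of SP factors (GGGCGG) and the ETS core (CCGGAA, which can overlap GAS).
IFNAR1, chr21:34697084-34697208, plus strand: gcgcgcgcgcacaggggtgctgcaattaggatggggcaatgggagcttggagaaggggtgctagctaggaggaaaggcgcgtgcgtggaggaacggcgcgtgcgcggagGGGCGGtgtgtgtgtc
IFNGR2, chr21:34775469-34775718, plus strand: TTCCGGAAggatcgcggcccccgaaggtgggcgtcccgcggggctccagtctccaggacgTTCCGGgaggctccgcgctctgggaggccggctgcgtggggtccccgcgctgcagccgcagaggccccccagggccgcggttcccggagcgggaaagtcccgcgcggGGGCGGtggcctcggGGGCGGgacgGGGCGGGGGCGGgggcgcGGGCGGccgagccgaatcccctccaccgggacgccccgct
IFNLR1, chr1:24513780-24514029, minus strand: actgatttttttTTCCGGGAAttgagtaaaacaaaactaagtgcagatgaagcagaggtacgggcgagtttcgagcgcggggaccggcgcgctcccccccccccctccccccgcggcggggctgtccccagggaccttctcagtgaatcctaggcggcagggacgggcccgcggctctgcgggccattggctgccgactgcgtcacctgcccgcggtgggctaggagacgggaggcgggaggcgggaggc
JAK1 canonical, chr1:65432253-65432482, minus strand: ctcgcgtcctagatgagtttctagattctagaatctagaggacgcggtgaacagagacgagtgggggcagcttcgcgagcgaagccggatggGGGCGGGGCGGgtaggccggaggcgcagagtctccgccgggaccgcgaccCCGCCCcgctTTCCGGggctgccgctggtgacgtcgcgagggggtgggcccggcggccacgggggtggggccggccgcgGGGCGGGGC
JAK1 upstream, chr1:65533438-65533665, minus strand: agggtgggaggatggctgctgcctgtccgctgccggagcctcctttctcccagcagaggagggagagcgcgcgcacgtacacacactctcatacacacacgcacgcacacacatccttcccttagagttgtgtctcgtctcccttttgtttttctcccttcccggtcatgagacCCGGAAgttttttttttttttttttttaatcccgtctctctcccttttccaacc
In the JAK1 canonical stretch the last GC box runs past the end. None of the 10 promoters held the ISRE core within 250 bases, which 2.91% of 24019 promoters (1 canonical TSS per gene) held. IFNLR1 alone held GAS, as TTCCGGGAA at positions −238 to −230 from its TSS, beside 5.97% of all promoters. A GC box was found at 7 of the 10, beside 53.4% of all, and an ETS core at 5, beside 17.6%. The share of G and C was highest at IFNGR2 (80.4%) and JAK1 canonical (74.4%), against a median of 61.6% over all promoters, and lowest at JAK1 upstream (54.0%). IFNLR1, JAK2 and IFNAR2 lay between 67.2% and 70.8%. TYK2 (62.0%), IFNGR1 (63.6%), IFNAR1 (64.8%) and IL10RB (65.2%) were close to the median. The letters of a window do not show that a factor binds there.

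H3K27ac stood at another place in the order at most of these genes. The percentile of the strongest region was lower after siDLEU1 in 6 of the 9 genes, beside 62.8% of all genes with a region in siCONT, so the share of genes that were lower was close to that of all genes. The shares and medians of all genes for a single mark below are also over genes with its region in siCONT. JAK1, lower by 3.79 points, was among the 6, and its change was 0.480 points ranked by −log10 p and 5.40 ranked by fragments. It was lower by at least 20 points at IFNLR1 and IL10RB (2 of 9, beside 19.4% of all genes) and higher by at least 20 points at IFNAR1 and JAK2 (2 of 9, beside 6.95%). The median change over the 9 genes was −15.3 points, and −4.60 over all genes. The median percentile itself went from 73.2 to 75.2, the other way. The median change was −17.5 points over the 6 receptor genes and −3.79 over the 3 kinase genes. The value of the kinases is that of JAK1 and rests on its upstream promoter: with 1 TSS per gene JAK1 was at −57.1 points and the kinase median was that of TYK2, −15.7. H3K4me3 moved by fewer points: 5 of the 9 genes were lower, beside 48.1% of all genes, the median change was −1.34 points against 0.248 over all genes, and no gene moved by 20 points in either direction, beside 8.93% of all genes lower and 7.06% higher by that much. Points are not on an equal scale for both marks, since the H3K4me3 lists are longer and these genes stood near their top (median percentile 88.5 in siCONT). Both marks were lower at 5 of the 9 genes (IFNAR2, IFNGR1, IFNLR1, JAK1 and TYK2), beside 33.8% of the genes with a region in all 4 lists. Both were higher at 3 (IFNAR1, IFNGR2 and JAK2), beside 27.8%. These groups depended on the ranking. Ranked by fragments, H3K4me3 was higher at IFNAR2 and IFNGR1 (4.56 and 0.349 points) and H3K27ac at JAK1, so that IFNLR1, TYK2, IFNGR2 and JAK2 were the genes with both marks lower, and IFNAR1 the gene with both higher.

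**Figure D1:**
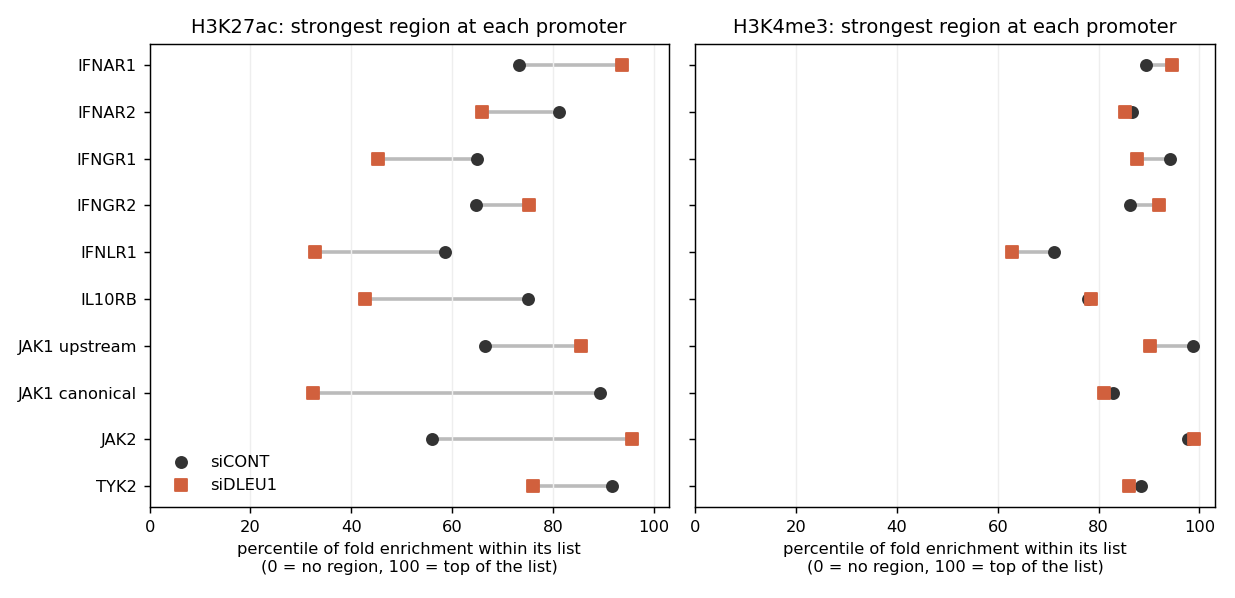
Percentile of fold enrichment of the strongest region at each of the 10 marked promoters (x axis, 0 to 100 within its list) in siCONT (dark circles) and siDLEU1 cells (orange squares), for H3K27ac on the left and H3K4me3 on the right. H3K27ac spans 32.3 to 95.6 after siDLEU1, with the longest lines at JAK1 canonical and JAK2, while H3K4me3 stays at or above 62.7 in both lists.

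Counted by promoter, H3K27ac was lower at 6 of 10, beside 60.7% of all promoters with a region in both lists, lower by at least 20 points at 3 of 10, beside 19%, and higher by that much at 2 of 10, beside 7.48%. H3K4me3 was lower at 6 of 10 promoters, beside 47.3%, and none moved by 20 points, beside 8.62% lower and 8.24% higher.

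The summit levels gave a more even picture. H3K27ac fragments per M reads were lower after siDLEU1 at all 10 promoters, as at 99.2% of all promoters with a region in both lists. The siDLEU1 to siCONT ratio had a median of 0.566 over the 10 promoters and 0.581 over all. All 10 ratios had 95% intervals below 1, and all 10 intervals held the median of all promoters. Intervals of either mark were computed at the 10 promoters alone, so counts of intervals have no share of all promoters beside them. H3K4me3 levels were lower at 2 of the 10 promoters, beside 28.9% of all, and the median ratio was 1.09 against 1.15 over all promoters. All 10 of these intervals held 1, and JAK1 upstream had the only interval without the median of all promoters.

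In siCONT cells the order of H3K27ac summit levels ran from JAK2 (6.75 per M), TYK2 (6.01), JAK1 canonical (5.73) and IFNAR1 (5.49) over JAK1 upstream (5.31), IFNGR2 (5.17), IFNAR2 (4.98) and IL10RB (4.52) to IFNGR1 (4.0) and IFNLR1 (3.45). JAK2 was also the highest (3.88) and IFNLR1 the lowest (1.46) after siDLEU1. All 9 pairs of neighbours in each of these orders had overlapping counting intervals, whereas the intervals of JAK2 and IFNLR1 lay apart in both lists. For H3K4me3, JAK2 (6.51) and JAK1 upstream (6.33) stood above the other promoters in siCONT cells, and the step from JAK1 upstream down to IFNGR1 (4.54) was the only pair of neighbours whose intervals lay apart. After siDLEU1 JAK2 was again the highest (7.08), and IFNLR1 the lowest (1.93).

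**Figure D2:**
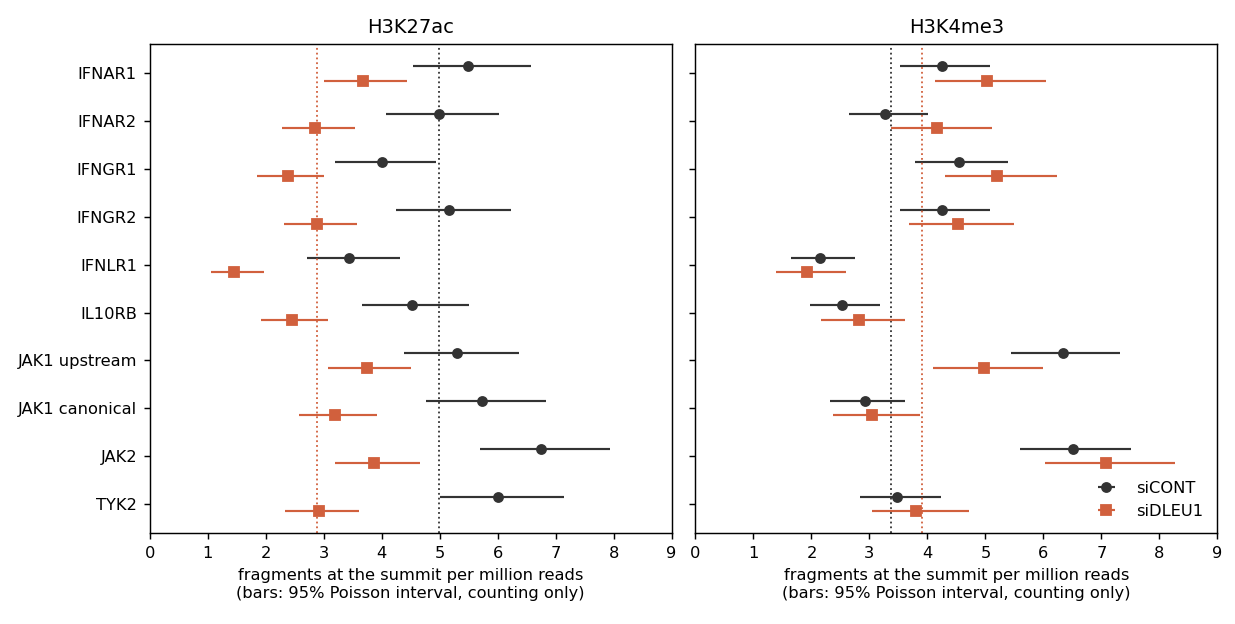
Fragments at the summit per M reads (x axis) at the 10 promoters in siCONT (dark circles) and siDLEU1 cells (orange squares), with 95% Poisson intervals of the count and dotted lines at the median of all promoters with a region in both lists. H3K27ac is lower after siDLEU1 at all 10 promoters by ratios of 0.424 to 0.705, and the H3K4me3 ratios run from 0.786 to 1.27.

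The covered length was shorter for H3K27ac and less so for H3K4me3. Within the windows, H3K27ac covered fewer bases after siDLEU1 at all 10 promoters, beside 93.1% of all promoters, with a median ratio of 0.827 against 0.803 over all. H3K4me3 covered fewer bases at 6 of 10, beside 64.1%, with a median ratio of 0.951 against 0.942. The number of H3K27ac regions was higher after siDLEU1 at 3 promoters (IFNGR1, IFNLR1 and JAK2), beside 17.4% of all, where 1 region in siCONT cells was called in parts after siDLEU1. The number of H3K4me3 regions was higher at 2 (IFNGR2 and JAK1 upstream), beside 11.7%.

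TSS by TSS, 81 of the 111 TSSs had a region within 1 kb in each list, and the other 30 had none in any list. These 30 were 13 of the 21 TSSs of TYK2, 5 of 21 of JAK1, 3 each of IFNAR1 (of 16), IFNAR2 (of 13) and IL10RB (of 9), 2 of 7 of IFNGR2 and 1 of 4 of JAK2. The TSS base itself lay inside an H3K27ac region at 58 TSSs in siCONT and 33 in siDLEU1 cells. Of the 58, 25 were outside every region after siDLEU1, beside 29.4% of all such TSSs, and none of the 23 outside in siCONT came to lie inside, beside 2.58%. The number went from 8 TSSs to 1 at TYK2 and from 10 to 4 at JAK1. H3K4me3 went the other way, from 43 TSSs inside a region to 58. Only 1 of the 43 was lost, beside 9.42% of all such TSSs, and 16 of 38 were gained, beside 25.9%, among them all 4 TSSs of IFNLR1 and 5 more of IFNAR1. Many of these TSSs lie a few bases apart and share 1 region edge, so they are not independent.

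**Figure D3:**
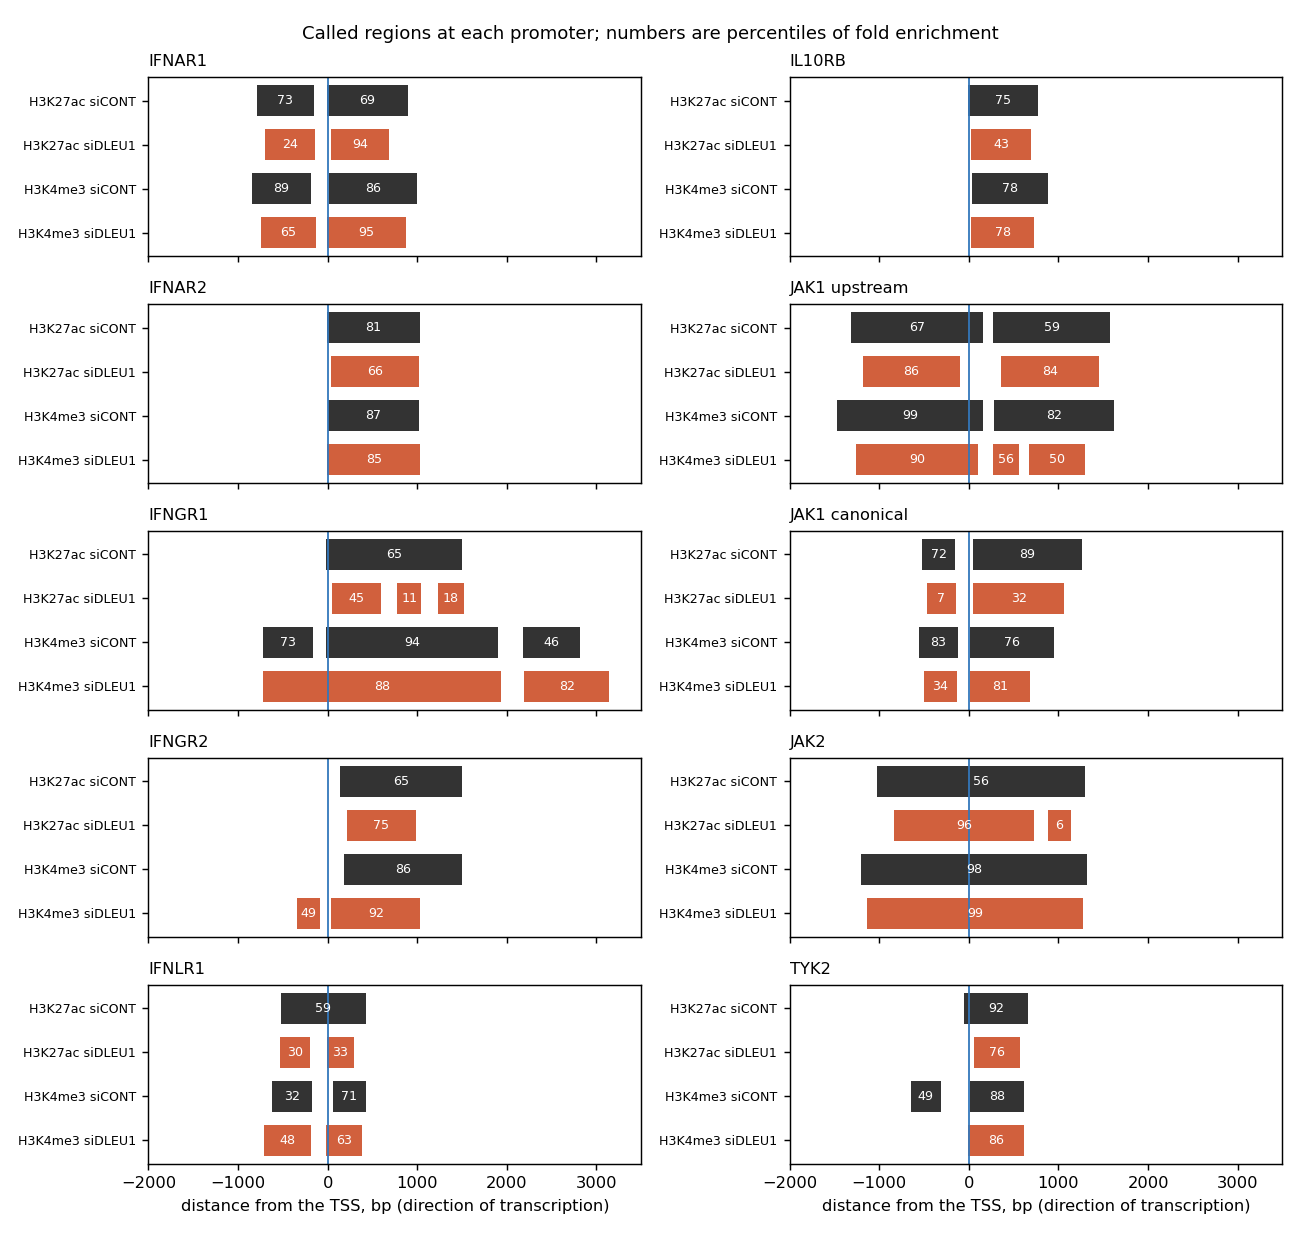
Called regions around the TSS of each marked promoter (x axis, bp from the TSS in the direction of transcription, blue line at 0), 1 row for each mark and siRNA, with the percentile of fold enrichment written in each bar. The gap just upstream of the TSS of IFNAR1 and JAK1 canonical is seen in all 4 lists, H3K27ac at IFNGR1, IFNLR1 and JAK2 is 1 bar in siCONT and several in siDLEU1 cells, and the gap in H3K4me3 just upstream of the IFNGR1 TSS in siCONT cells is closed in siDLEU1 cells.

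IFNAR1, the chain of the type I receptor that carries TYK2, spans bases 34696692 to 34732170 of chromosome 21 (plus strand), and its canonical TSS at 34697275 is that of an 11-exon transcript. The lncRNA ENSG00000289238 starts on the opposite strand within the same window. H3K27ac lay on both sides of the TSS. The region over exon 1 and the start of intron 1 was at percentile 68.7 in siCONT and 93.7 in siDLEU1 cells, with 118 and 108 fragments at its summit. The upstream region was at 73.2 and 24.5, with 94 and 82 fragments (4.38 and 2.79 per M). The strongest region by fold enrichment thus changed sides, whereas the downstream region had more fragments in both lists. The percentile of the gene was 73.2 in siCONT and 93.7 in siDLEU1 cells. The highest summit level was 5.49 and 3.67 per M, a ratio of 0.669 (95% interval 0.510 to 0.875), and 81.7% of all promoters had a lower ratio. Local background went from 1 to 0.439 control fragments at the downstream summit and from 0.497 to 2 at the upstream summit, and its part in the opposite percentiles was not tested. H3K4me3 showed the same exchange of sides in percentile, 86.1 and 94.5 downstream and 89.4 and 64.5 upstream. Its background went from 0.600 to 2 upstream and from 1 to 0.463 downstream. The downstream H3K4me3 region also had more fragments in both lists: 121 and 112 (4.25 and 5.02 per M), against 107 and 95 (3.76 and 4.26 per M) upstream.

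IFNAR2, the high-affinity type I chain that carries JAK1, spans bases 34577587 to 34637980 of chromosome 21 (plus strand) with a canonical TSS at 34602243, whose window also holds the start of the read-through gene IFNAR2-IL10RB. It had 1 region for each mark, over exon 1 and the start of intron 1, and nearly the same in extent in the 4 lists (984 to 1043 bp). H3K27ac was at percentile 81.3 in siCONT and 66.0 in siDLEU1 cells, with 107 and 84 fragments, and the ratio of levels was 0.573 (0.426 to 0.770). H3K4me3 was at 86.6 and 85.2, with 93 fragments in both lists, which at the unequal depths is a ratio of levels of 1.27 (0.946 to 1.72). Among the 10 promoters this one kept the largest share of its H3K27ac bases, with a ratio of covered bases of 0.943. Local background at the H3K27ac summit was 0.497 and 0.704, and its part was not tested.

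IFNGR1, the ligand-binding chain of the interferon gamma receptor, spans bases 137518620 to 137540586 of chromosome 6 (minus strand). In siCONT cells 1 H3K27ac region of 1520 bp ran from 137539024 to 137540543, over exon 1 and into intron 1. In siDLEU1 cells 3 regions of 550, 271 and 291 bp stood in its place, the strongest next to the TSS. The percentile was 65.0 and 45.4, with 86 and 70 fragments, and the ratio of levels was 0.595 (0.427 to 0.825). Local background was 0.561 and 0.880, and its part was not tested. H3K4me3 went the opposite way in extent: a region of 1920 bp that held the canonical TSS and one of 559 bp upstream of it in siCONT cells were 1 region of 2653 bp after siDLEU1, while the percentile was 94.1 and 87.6. A further H3K4me3 region in intron 1, 2180 bp from the TSS in siCONT cells, was at 46.3 and 81.5, with 38 and 69 fragments (1.34 and 3.09 per M).

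IFNGR2, the signalling chain that carries JAK2, spans bases 34775719 to 34851655 of chromosome 21 (plus strand), and the lncRNA ENSG00000289939 starts in its window on the same strand. Its H3K27ac region began 139 bp after the TSS in siCONT and 219 bp after it in siDLEU1 cells, and was 1356 and 763 bp long. The percentile was 64.9 and 75.2 although fragments went from 111 to 85 and the ratio of levels was 0.559 (0.417 to 0.749), below the median of all promoters. Local background was 1 in siCONT and 0.528 in siDLEU1 cells, and its part in the higher percentile was not tested. Ranked by fragments in place of fold enrichment, the change was −6.62 and not 10.4 points. H3K4me3 was at 86.1 and 92.1, and a region of 259 bp upstream of the TSS, over part of the stretch printed above, was called in siDLEU1 cells only, with 33 fragments at its summit.

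IFNLR1, the interferon lambda chain found mainly on epithelial cells, spans bases 24480658 to 24514449 of chromosome 1 (minus strand). It had the lowest levels of the 10 promoters for both marks. Its H3K27ac region of 952 bp in siCONT cells, which spanned the TSS, was called as 2 regions of 309 and 333 bp after siDLEU1, with a gap over most of the printed stretch. The percentile was 58.5 and 32.7, with 74 and 43 fragments. The ratio of levels of 0.424 (0.284 to 0.626) was the lowest of the 10, and 2.66% of all promoters had a lower ratio. Local background was the genome average in both lists (0.497 and 0.439). H3K4me3 was at 71.1 and 62.7, with 61 and 43 fragments and a ratio of levels of 0.898 (0.593 to 1.35). Its regions of 366 and 450 bp were 399 and 519 bp long after siDLEU1.

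IL10RB, the chain shared with the interleukin-10 receptor, spans bases 34638672 to 34683725 of chromosome 21 (plus strand), with the divergent lncRNA IL10RB-DT at its start. It had 1 region for each mark, over exon 1. H3K27ac was at percentile 75.1 in siCONT and 42.8 in siDLEU1 cells, with 97 and 72 fragments, and the ratio of levels was 0.542 (0.394 to 0.743). Its change of −32.3 points was the lowest of the receptor genes, while 31.8% of all promoters had a lower ratio of levels. Local background was 0.497 and 1, and its part was not tested. H3K4me3 was at 77.8 and 78.5, with 72 and 63 fragments and a ratio of levels of 1.11 (0.782 to 1.59), and covered 843 and 698 bp.

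JAK1, the kinase common to all 3 interferon receptor types, spans bases 65298906 to 65533437 of chromosome 1 (minus strand) and had 2 marked promoters 101 kb apart. At the canonical promoter (TSS at 65432232) the H3K27ac region over exon 1 and intron 1 was at percentile 89.4 in siCONT and 32.3 in siDLEU1 cells, with 123 and 94 fragments. The region upstream of this TSS was at 71.8 and 7.08, with 92 and 59 fragments (4.28 and 2.01 per M). At the upstream promoter (TSS at 65533415), which also holds the starts of RP4-535B20.1 and ENSG00000288804, the strongest region was at 66.6 and 85.6, with 114 and 110 fragments. The changes, −57.1 and 19.0 points, differed by more than those of the promoters of nearly all other genes: of 867 genes with at least 2 H3K27ac promoters in both lists, 47.5% had 1 lower and another higher, and 0.807% had changes at least as far apart as JAK1. The ratios of levels were 0.558 (0.422 to 0.736) and 0.705 (0.537 to 0.924), whose intervals overlapped. Local background went from 0.497 to 2 at the canonical and from 1 to 0.704 at the upstream summit, and its part was not tested.

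H3K4me3 at JAK1 stood differently. The upstream promoter was at 98.7 in siCONT and 90.2 in siDLEU1 cells, with 180 and 111 fragments, and the ratio of levels of 0.786 (0.615 to 1.0) was exceeded by most promoters, with 8.84% lower. Its second region, of 1336 bp in siCONT cells, was called as parts of 635 and 290 bp. At the canonical promoter the strongest region was at 82.9 and 81.1, but on different sides of the TSS. The upstream side was at 82.9 and 34.4, where the background was 0.532 and 2, and the exon 1 side at 75.6 and 81.1. Between the promoters, a region at the starts of LINC01359 and ENSG00000272506 was at 79.6 and 97.1 for H3K4me3 (100 and 141 fragments, 3.52 and 6.32 per M). For H3K27ac it was at 44.3 and 55.4, with 3.03 and 2.21 per M. An H3K4me3 region from 65501505 to 65502338, with no TSS within 1 kb, was called after siDLEU1 only (percentile 67.2, 66 fragments).

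JAK2, the kinase of IFNGR2, spans bases 4984390 to 5129948 of chromosome 9 (plus strand) and had the highest summit level for each mark in each list. A single H3K27ac region of 2322 bp in siCONT cells, over exons 1 and 2, was called as regions of 1563 and 257 bp after siDLEU1. The percentile was 56.1 and 95.6, the highest change of the 10 promoters, and 98.9% of all promoters had a lower change. The fragments nevertheless went from 145 to 114, and the ratio of levels was 0.574 (0.445 to 0.739), with 47.0% of all promoters lower. Local background was 2 in siCONT and 0.439 in siDLEU1 cells. With regions ranked by fragments, which were solved jointly with the background, the change was −1.74 points in place of 39.5. The part of the background in the higher percentile was not tested. H3K4me3 spanned the TSS in both lists, with 2520 and 2414 bp, at percentiles 97.8 and 98.9.

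TYK2, the kinase of IFNAR1 and IL10RB, spans bases 10461209 to 10491284 of chromosome 19 (minus strand). Of its 6 promoters 1 was marked. The H3K27ac region over exon 1 was at percentile 91.7 in siCONT and 76.1 in siDLEU1 cells, with 129 and 86 fragments and a length of 712 and 507 bp. The ratio of levels was 0.487 (0.366 to 0.645), and 11.2% of all promoters had a lower ratio. Local background was near the genome average in both lists (0.497 and 0.528). H3K4me3 at exon 1 was at 88.5 and 86.0, with 99 and 85 fragments and a ratio of levels of 1.09 (0.809 to 1.48). A weaker region of 335 bp upstream, with 40 fragments at its summit in siCONT cells, was not in the siDLEU1 list.

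The percentile changes and the local background moved together over all promoters, in part by construction, since fold enrichment is divided by that background. The classes below describe the measure and do not test a cause. Where the background at the strongest H3K27ac region was over 1.5 times higher after siDLEU1 (18.3% of promoters), the median percentile change was −26.6 points. It was −4.32 where the background stayed within 1.5 times and 12.4 where it was over 1.5 times lower (23.4%). The median ratios of summit levels in the same 3 classes were 0.579, 0.583 and 0.576. Of the 10 promoters, JAK1 canonical, IL10RB and IFNGR1 were in the first class, JAK2 and IFNGR2 in the last, and the 5 others in between, where the changes ran from −25.8 (IFNLR1) to 19.0 points (JAK1 upstream) apart from IFNAR1 (20.5). IFNAR1 was in this class because its strongest region by fold enrichment was the upstream one in siCONT (background 0.497) and the downstream one in siDLEU1 cells (0.439). At the downstream region in both lists, its background went from 1 to 0.439. For H3K4me3 the median changes were −9.93, 0.327 and 8.99 points, with IFNGR1 in the first class and IFNGR2 and JAK2 in the last. The part of the background in single percentile changes was not tested.

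**Figure D4:**
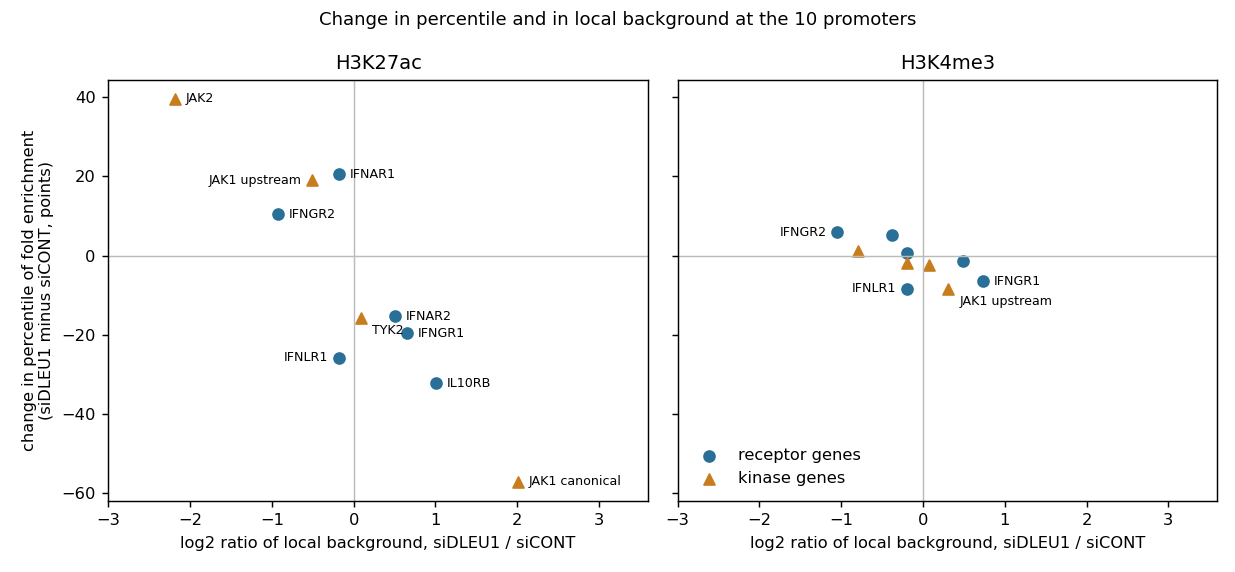
Change in percentile of the strongest region (y axis, siDLEU1 minus siCONT, points) against the log2 ratio of its local background (x axis, siDLEU1 over siCONT) at the 10 promoters, receptor genes as blue circles and kinase genes as orange triangles. The axes are not independent, since fold enrichment is divided by the background. JAK2 has the highest H3K27ac change and the lowest ratio of background, JAK1 canonical the reverse, while IFNLR1 lies near 0 on the x axis. IFNAR1 also does, but its point sets the upstream region in siCONT against the downstream region in siDLEU1 cells, and for H3K4me3 the 10 changes run from −8.50 to 5.91 points.

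IFNAR2, IL10RB, IFNAR1 and IFNGR2 lie side by side within 274 kb of chromosome 21, from 34577587 to 34851655. Counted with 1 kb beyond either end of this span, each list held 7 H3K27ac regions, which covered 6585 and 5070 bases. Of these, 5 were at TSSs of the 4 genes and 2 at the start of TMEM50B, and none lay away from a TSS. The 4 neighbours did not move together in percentile: IFNAR2 and IL10RB were lower, and IFNAR1 and IFNGR2 higher. H3K4me3 had 16 regions in siCONT and 19 in siDLEU1 cells, of which 9 and 11 were at no TSS. The strongest of these in siCONT cells, in an intron of IFNGR2 from 34801248 to 34802904, was at percentile 94.0 and its counterpart in siDLEU1 cells at 79.5. They had 123 and 90 fragments, or 4.33 and 4.03 per M. Another in the same gene, from 34807323 to 34808060, was at 80.7 and 48.5, with 78 and 39 fragments (2.74 and 1.75 per M). No H3K27ac region overlapped the gene bodies of IFNAR1, IFNAR2, IL10RB or IFNGR2 outside the windows other than at the start of TMEM50B, at the end of IFNGR2.

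**Figure D5:**
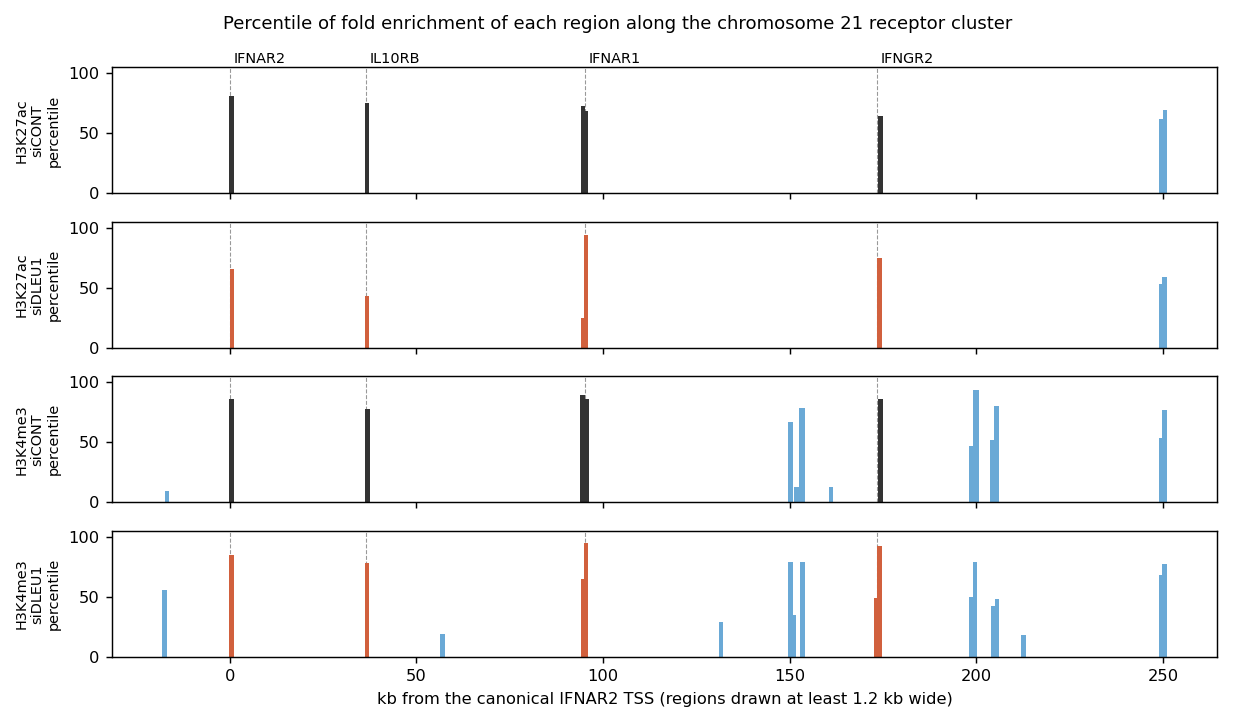
Percentile of fold enrichment (y axis, 0 to 100 within each list) of every called region along the receptor cluster (x axis, kb from the canonical IFNAR2 TSS), 1 panel for each mark and siRNA, with dashed lines at the canonical TSS of each gene. Regions at TSSs of the 4 genes are dark (siCONT) or orange (siDLEU1) and other regions are blue. H3K27ac is found at TSSs alone, 7 regions in each list, and H3K4me3 also between them.

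The genes most like IFNAR1 in their 4 percentiles (Euclidean distance) were UAP1 (1.03), IL27RA (2.43) and COP1 (2.62), and those most like IFNGR2 were CALM2 (1.68), YTHDC1 (2.58) and DNASE1L1 (2.79). Among other genes of the pathway, 4 of the 4 further class II cytokine receptor genes with H3K27ac in siCONT cells were lower after siDLEU1, but by unlike amounts. IL20RA, a chain of the interleukin-20 receptor, was the lowest at −28.7 points. The other changes were −19.9, −4.46 (from 9.13 to 4.67) and −0.00809 points, the last of them nearly none. IL10RA had no region. IL22RA1, the neighbour of IFNLR1, was at 52.6 and 32.7, and in the siDLEU1 list it was tied with IFNLR1, as regions of equal fold enrichment share a rank. JAK3, the kinase of the common gamma chain, was the only JAK gene to lose H3K27ac, from 35.8 to no region, and its H3K4me3 went from 64.4 to 5.22.

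Downstream of the kinases, 5 of the 8 STAT and IRF9 genes were lower for H3K27ac and 3 higher, with a median change of −6.20 points. STAT2, a transcription factor of type I and lambda signalling, had the highest H3K27ac change among them, from 55.9 to 72.8. Of the 10 inhibitors 4 were lower and 6 higher, with the lowest change at SOCS1, an inhibitor of JAK kinases, from 58.5 to 21.7, and the highest at the phosphatase gene PTPN2, from 58.9 to 67.7. For H3K4me3 there were 2 lower and 2 higher of 4 class II receptor genes, and 5 lower and 5 higher of 10 inhibitors, with USP18, an inhibitor that binds IFNAR2, the lowest in change, from 90.2 to 57.9. These counts stand beside 62.8% of all genes with a region in siCONT that were lower for H3K27ac, and 48.1% for H3K4me3. Local background at these pathway genes was not compared.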

How the data were processed

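Reads of an Ion Proton System were mapped by the authors to hg19 with bowtie2, and peaks were called in each library with MACS2. The 4 deposited lists give, for each peak, its position, its fold enrichment over local background (a ratio), the deposited −log10 of its p-value and the deposited −log10 of its q-value. The settings of MACS2 and its control library are not given in the sources used here, and the 2 input libraries and the display score column were not used. Positions were compared with GRCh37, and TSSs were those of GENCODE transcripts (v44 lifted to GRCh37) of 24135 genes with a RefSeq transcript.

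Peaks on the autosomes and chromosome X were kept, with an overlap of at least 1 bp and windows of 1 kb. The percentile is the rank of fold enrichment within a list. Whole fragments at the summit and the local background were solved jointly from fold enrichment and p, under the default MACS2 rule for local background, an assumption, which gave a single solution for 100% of the peaks of each list. Tested on simulated data, the step gave the true number of fragments for 99.8% of 7867 peaks. The simulated peaks were made under the same assumed rule, so this checked the solving step and not the rule. Depth rests on a genome size of 2.7 Gb, with fragments taken to be of the length of the shortest region, and reads without molecular identifiers are not independent molecules. Intervals of counts are exact Poisson and those of ratios exact Clopper-Pearson, at 95%. With 1 library for each siRNA and mark, no test was made. Results were recomputed with peaks at a −log10 q of at least 10, rank by −log10 p or by fragments, windows of 3 kb, 1 TSS per gene, equal numbers of regions, and regions within 1 kb stitched.

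The genes, the other gene lists and the motifs were chosen with earlier results of these data known. All 9 genes are named. Other pathway genes were named for the largest rise or fall of their group, and the genes most like IFNAR1 and IFNGR2 by distance over the 4 percentiles. PECAM1, a further marker of other cell types, was not analysed here. Some genes of these lists are not reported here. Python 3.11.15, numpy 2.4.6, pandas 2.3.3, scipy 1.17.1 and matplotlib 3.10.9 were used.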

Additional observations from a re-analysis of the deposited data

How the results depend on the processing

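No paired analysis was possible because each siRNA and mark has 1 library, and no alternative could leave out a replicate. The number of genes with a lower H3K27ac percentile was 6 and ran from 5 to 7 under the alternatives of rank, window and threshold. The alternatives were computed for the 9 genes alone, so their counts and medians have no value of all genes beside them. The median H3K27ac change over the 9 genes was −15.3 points and became −27.2 with peaks at a −log10 q of at least 10, −10.4 ranked by −log10 p, −5.72 ranked by fragments, −15.7 with 1 TSS per gene and −13.2 with equal numbers of regions. The median H3K4me3 change was −1.34 points and became −0.537, −0.757 and −0.583 under the first 3 of these, −0.955 with equal numbers of regions and −1.94 with windows of 3 kb. The median ratio of covered bases was 0.741 at the stricter q, 0.783 with 3 kb and 0.866 stitched for H3K27ac, and 0.993, 0.912 and 0.986 for H3K4me3. At the stricter q, IFNLR1 had no H3K27ac region after siDLEU1. Ranked by fragments, the JAK2 H3K27ac change reversed to −1.74 points, and that of IFNGR2 was −6.62. The JAK1 change was −3.79 points, and −57.1 with 1 TSS per gene, since the upstream promoter is then left out, while it was 0.480 ranked by −log10 p and 5.40 ranked by fragments. The H3K4me3 change of IFNAR2 was −1.34 points, and 0.656 and 4.56 under these rankings, and that of IFNGR1 was −6.52, and 0.349 ranked by fragments. Summit fragments per M reads, an alternative chosen after the data were seen, were lower at 9 of 9 genes for H3K27ac and at 2 of 9 for H3K4me3. The cause of the other differences was not tested. The number of reads limits the ratios of levels, such as that of H3K27ac at IFNLR1, whose interval ran from 0.284 to 0.626.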
